A study of Homo sapiens with 24 samples.

Results

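A set of 30 genes of sterol metabolism, chosen by symbol as the enzymes of cholesterol synthesis, the proteins that control sterol regulatory element-binding proteins (SREBPs) and the proteins of sterol uptake and transport, were followed in HepG2 cells. All 30 were found among the 34618 genes of the count table, and 29 had enough counts to be tested. HepG2 is an established human hepatocellular carcinoma line. The cells carried a stably integrated lentiviral short hairpin RNA and had been selected with puromycin at 1 µg/mL. The hairpin was a non-specific control (shCtrl), one against SETD2, the methyltransferase that trimethylates histone H3 at lysine 36 (shSETD2), or one against METTL14, a subunit of the enzyme that writes N6-methyladenosine on RNA (shMETTL14). Each of these 3 lines was collected without drug (0 h) or after 1, 3 or 6 h with actinomycin D at 5 µg/mL, which blocks transcription, giving 12 groups of 2 libraries. Each knockdown is represented by 1 named hairpin line, so the hairpin and the line cannot be told apart from the knockdown.

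Cells make cholesterol from acetyl-CoA through the mevalonate pathway, then squalene, lanosterol and a series of sterol intermediates. When sterols in the endoplasmic reticulum fall, SCAP carries the SREBP precursor to the Golgi, the site-1 and site-2 proteases release its N-terminal part, and this enters the nucleus and activates genes of sterol synthesis and uptake. When sterols are plentiful, the INSIG proteins hold SCAP in the endoplasmic reticulum. The liver is a main site of this pathway.

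SREBPs are known to act with NF-Y, which binds the CCAAT box, and with Sp1, which binds GC boxes, so the 300-base windows around the start sites (250 bases before and 50 after, RefSeq, GRCh38.p14) were searched for these letters. Of the 30 genes 27 have a window. CCAAT on either strand was found in 19 of 27 (70.4%), against 39.7% of 27305 genes with a window. GGGCGG, a GC box, was found in 23 of 27 (85.2%) against 48.3%. TCACNCCAC, a core of the sterol regulatory element, was found in the window of SREBF2 alone (3.70% against 1.39%). These are matches of letters, counted as a description, and say nothing of binding. The 27305 genes outnumber the 14887 tested in the counts, and no share among the tested genes alone is given here. The 170 bases upstream of the first start site are shown for 6 genes, picked after their values were seen: 4 of the 7 genes with the largest rise in shSETD2 cells, SREBF2 itself and MBTPS1, which fell. Capitals mark CCAAT, its reverse complement ATTGG and the TCACNCCAC match, with every stretch printed 5′ to 3′ on the strand of its gene. The stretches are at chr4:165327499-165327668 (MSMO1, plus strand), chr5:43313413-43313582 (HMGCS1, minus), chr16:88663092-88663261 (MVD, minus), chrX:48521638-48521807 (EBP, plus), chr22:41832935-41833104 (SREBF2, plus) and chr16:84116943-84117112 (MBTPS1, minus).
MSMO1: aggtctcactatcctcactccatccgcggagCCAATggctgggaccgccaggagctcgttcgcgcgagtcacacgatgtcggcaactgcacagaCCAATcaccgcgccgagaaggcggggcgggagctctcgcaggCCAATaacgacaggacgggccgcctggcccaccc
HMGCS1: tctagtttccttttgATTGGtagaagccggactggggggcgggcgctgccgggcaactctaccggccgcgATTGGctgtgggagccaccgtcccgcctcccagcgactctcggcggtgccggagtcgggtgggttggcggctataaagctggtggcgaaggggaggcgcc
MVD: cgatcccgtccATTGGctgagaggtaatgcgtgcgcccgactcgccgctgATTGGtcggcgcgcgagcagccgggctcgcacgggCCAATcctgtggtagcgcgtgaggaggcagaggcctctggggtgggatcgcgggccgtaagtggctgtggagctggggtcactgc
EBP: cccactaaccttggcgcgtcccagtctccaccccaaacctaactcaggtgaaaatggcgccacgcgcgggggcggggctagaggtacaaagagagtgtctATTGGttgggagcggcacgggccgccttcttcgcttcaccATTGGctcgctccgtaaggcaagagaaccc
SREBF2: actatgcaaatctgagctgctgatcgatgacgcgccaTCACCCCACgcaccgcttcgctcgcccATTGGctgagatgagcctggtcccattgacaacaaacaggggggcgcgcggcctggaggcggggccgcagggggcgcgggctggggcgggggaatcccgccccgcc
MBTPS1: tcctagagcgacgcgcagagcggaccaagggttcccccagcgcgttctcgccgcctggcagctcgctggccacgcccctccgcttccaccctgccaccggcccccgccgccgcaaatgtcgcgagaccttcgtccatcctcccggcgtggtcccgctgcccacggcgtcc
MSMO1 and MVD carry 3 CCAAT boxes in these stretches, HMGCS1 and EBP 2, SREBF2 1 and MBTPS1 0. In the full windows, CCAAT was found in 17 of the 20 genes that rose in untreated shSETD2 cells (not in CYP51A1, INSIG2 or NPC1), in 1 of 5 that were not called (GGPS1) and not in MBTPS1. The search was set up with earlier results of these data known, and no test was made of it.

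The libraries held 18.3 to 31.4 M counts, with a median of 24.0 M. Levels are given as CPM, counts per M counts of the library scaled for its composition, on which 3 counts amount to 0.0936 to 0.196. The targeted genes were lower in their own lines at 0 h. SETD2 stood at 66.5% of shCtrl in shSETD2 cells (adjusted p = 1.20e-07), and METTL14 at 48.8% in shMETTL14 cells (adjusted p = 1.26e-08). METTL14 was at 129% of shCtrl in shSETD2 cells (adjusted p = 0.00260). The 2 shSETD2 libraries of 6 h stood apart from each other: 9 of the 29 genes differed by more than 1.3-fold between them, against 0 or 1 in every other pair. MSMO1, for example, stood at 273 and 473 CPM there. Counts of slope calls and called slope differences that use this pair are therefore also given without it. Differences between lines without it were taken over 0 to 3 h in both lines. They thus repeat the 0 to 3 h slopes in a fit without that pair. All 10 hepatocyte markers were present. Their summed level at 0 h was 25945 to 26538 CPM in shCtrl, 58703 to 59133 CPM in shSETD2 and 28801 to 29199 CPM in shMETTL14. Of the 10, 9 were called higher and 0 lower in shSETD2 cells, against 21.6% and 18.9% of all genes tested. In shMETTL14 cells 6 were called higher and 1 lower, against 23.1% and 25.1%. The part of these marker changes in the sterol results was not tested. Of the fibroblast markers only COL1A1 exceeded 1 CPM in any library (4.04 to 19.1 CPM), and PTPRC, a marker of blood cells, was at 0 in all 24 libraries. LYZ (1045 to 5055 CPM) and RELN (1369 to 4168 CPM), listed as markers of blood and of stellate cells, were abundant.

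Adjusted p-values are from edgeR's quasi-likelihood test with Benjamini-Hochberg adjustment over all 14887 genes tested, two-sided, and a gene is called at an adjusted p below 0.05. The series' text calls the 2 libraries of a group biological replicates without saying whether separate cultures were grown, so the p-values measure the spread between these libraries, which may be technical.

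In untreated cells the sterol genes rose together in the shSETD2 line. Of the 29 tested, 23 were higher than in shCtrl and 1 was lower (median log2 fold change 0.97), whereas 40.6% of all genes tested were called, 21.6% higher and 18.9% lower (median 0.02). In the shMETTL14 line 7 were higher and 6 lower (median 0.00), near the 23.1% and 25.1% of all genes (48.1% either way). Compared directly with shMETTL14, the shSETD2 line had 23 higher and 2 lower (median 1.20), against 29.2% and 23% of all genes (52.2% either way).

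**Figure D1:**
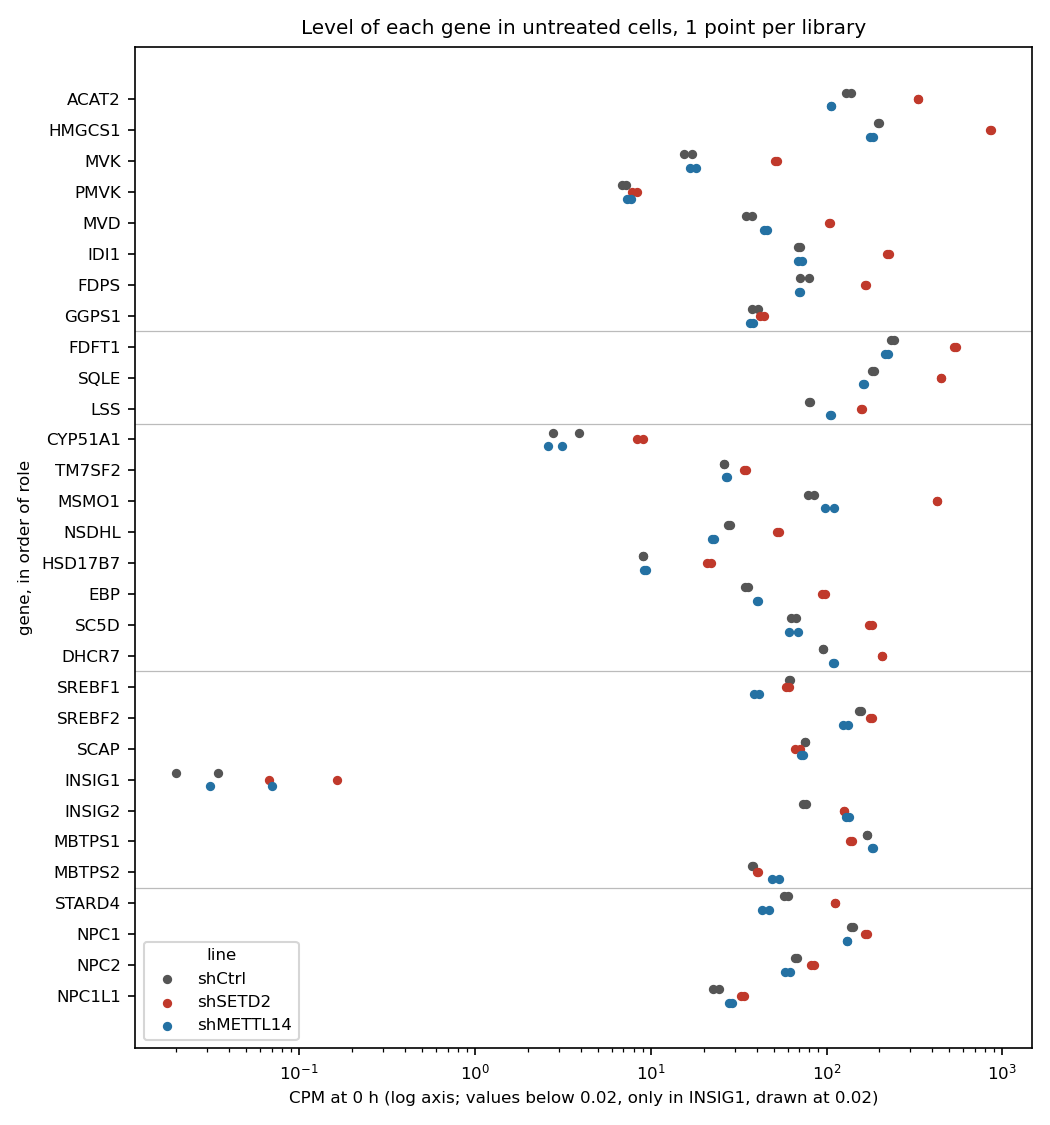
Level of each of the 30 genes at 0 h in CPM (log axis), 1 point per library, 2 libraries for each of the 3 lines, with genes in order of role and grey lines between roles. In most rows of the synthesis enzymes both shSETD2 points lie to the right of the shCtrl and shMETTL14 points; INSIG1 lies near 0.

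The upper mevalonate pathway runs from acetyl-CoA to farnesyl and geranylgeranyl diphosphate. In shSETD2 cells 6 of its 8 genes were higher and none was lower at 0 h (6 higher and 0 lower also at an unadjusted p below 0.05). HMGCS1, the cytosolic synthase that makes HMG-CoA (ENSG00000112972; chromosome 5, 43289497 to 43313614, GRCh37), stood at 198 and 195 CPM in shCtrl, 856 and 865 CPM in shSETD2 and 184 and 178 CPM in shMETTL14. Both shSETD2 libraries were far above the other 4, a 4.38-fold rise (log2 2.13, SE 0.0654, adjusted p = 5.14e-17), while shMETTL14 was not called (log2 -0.12, adjusted p = 0.138). IDI1, which isomerises isopentenyl diphosphate, read 69.1 and 70.8 CPM in shCtrl, 222 and 228 CPM in shSETD2 and 68.7 and 72.2 CPM in shMETTL14. The shCtrl and shMETTL14 libraries overlapped, and the shSETD2 rise was 3.21-fold (SE 0.141 on the log2 scale, adjusted p = 4.81e-08). MVK, the kinase of mevalonate, went from 17.1 and 15.5 CPM in shCtrl to 52.5 and 50.6 CPM in shSETD2 (log2 1.67, adjusted p = 8.36e-12). MVD, the decarboxylase that ends the mevalonate steps, rose by 1.52 in shSETD2, and ACAT2, which condenses acetyl-CoA, by 1.32. FDPS, the farnesyl diphosphate synthase, rose by 1.15. The exceptions were PMVK, phosphomevalonate kinase (log2 0.20, adjusted p = 0.231; called higher, at 0.30 and adjusted p = 0.0253, with each library's trend on transcript GC content removed), and GGPS1, which makes geranylgeranyl diphosphate for protein prenylation and ubiquinone rather than for sterols (log2 0.13, adjusted p = 0.176). In shMETTL14 cells MVD was higher (log2 0.32) and ACAT2 lower (log2 -0.33), and the other 6 were not called. FDPS has pseudogene copies, and ACAT2, MVK and GGPS1 overlap well-counted genes on the other strand (SOD2 and TCP1, MMAB, ARID4B), so part of their counts is uncertain. The same holds for SREBF1 (RAI1), NPC1 (C18orf8, over 31.7% of the gene) and NPC2 (ISCA2) on the other strand, and for TM7SF2 (VPS51) on the same strand.

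All 3 genes from squalene to lanosterol were higher in shSETD2 cells. FDFT1, squalene synthase and the first committed step toward sterols, stood at 233 and 241 CPM in shCtrl, 547 and 533 CPM in shSETD2 and 224 and 216 CPM in shMETTL14. SQLE, squalene epoxidase and a rate-limiting oxygenase, stood at 185 and 181, 446 and 449, and 162 and 163 CPM in the same order. For both genes the shSETD2 libraries were the highest and the shMETTL14 libraries lay just below shCtrl. The log2 fold changes in shSETD2 were 1.19 for FDFT1 (SE 0.0431), 1.29 for SQLE (SE 0.0536) and 0.97 for LSS, lanosterol synthase (SE 0.0778). In shMETTL14 cells FDFT1 (log2 -0.11, adjusted p = 0.0406) and SQLE (-0.17, adjusted p = 0.0107) were lower and LSS was higher (0.39, adjusted p = 2.33e-04).

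All 8 genes of the set that act from lanosterol to cholesterol were higher in shSETD2 cells, with log2 fold changes of 0.39 to 2.38. The highest was MSMO1, the C4-methyl sterol oxidase (ENSG00000052802; chromosome 4, 166248775 to 166264312), which read 85.4 and 78.3 CPM in shCtrl, 426 and 427 CPM in shSETD2 and 98.5 and 110 CPM in shMETTL14. This is a 5.22-fold rise (log2 2.38, SE 0.246, adjusted p = 2.54e-06), with the widest standard error of the 29 genes. SC5D, the lathosterol desaturase (1.46), EBP, the sterol isomerase (1.45), and CYP51A1, the lanosterol demethylase (1.37), followed. HSD17B7, a 3-ketosteroid reductase of the C4 demethylation, rose by 1.24, DHCR7, 7-dehydrocholesterol reductase, by 1.12 and NSDHL, a C4-sterol dehydrogenase, by 0.92. TM7SF2, a sterol C14 reductase, had the smallest rise (0.39, adjusted p = 0.00506). LBR, outside the set and read below in the list with other sterol steps, was not called (0.10, adjusted p = 0.279). In shMETTL14 cells EBP (0.20) and DHCR7 (0.20) were higher, NSDHL was lower (-0.30), and the other 5 of these 8 were not called. CYP51A1 had only 2.77 and 3.90 CPM in the shCtrl libraries, and its whole span lies inside LRRD1 on the same strand, so its counts are uncertain. HSD17B7 has near-identical pseudogene copies, and the treatment of reads that match both is not stated in the labels.

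The genes that control SREBPs did not move as a group. In shSETD2 cells 2 of the 6 tested were higher, 1 was lower and 3 were not called. SREBF2, the SREBP known mainly for sterol genes (ENSG00000198911; chromosome 22, 42229109 to 42303312), stood at 153 and 158 CPM in shCtrl, 177 and 182 CPM in shSETD2 and 132 and 124 CPM in shMETTL14. The 3 pairs did not overlap, and the shSETD2 rise was 1.15-fold (log2 0.21, SE 0.0707, adjusted p = 0.0225). This call was lost with DESeq2, with other library scalings and without any 1 of the 4 libraries (log2 0.05 to 0.23, highest adjusted p = 0.640). With the GC trend removed the shSETD2 call was kept (log2 0.28, adjusted p = 6.55e-10). In shMETTL14 cells SREBF2 was lower (log2 -0.28, adjusted p = 0.00243). SREBF1, whose products act mainly on fatty acid genes, read 62.4 and 61.4 CPM in shCtrl, 61.4 and 59.1 CPM in shSETD2 and 41.0 and 38.8 CPM in shMETTL14. It was lower in shMETTL14 cells (log2 -0.63, SE 0.108, adjusted p = 6.57e-05) and not called in shSETD2 cells (-0.04, adjusted p = 0.804), where it turned to 0.20 and was called higher with the GC trend removed (adjusted p = 3.80e-04). INSIG2 was higher in both knockdown lines, at 126 and 126 CPM in shSETD2 and 129 and 134 CPM in shMETTL14 against 73.4 and 76.7 CPM in shCtrl (log2 0.75 and 0.81). The knockdown lines did not differ in INSIG2 by this test (log2 -0.06, SE 0.123, adjusted p = 0.700). With the GC trend removed INSIG2 was called lower in shSETD2 than in shMETTL14 (log2 -0.21, adjusted p = 3.20e-05).

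MBTPS1, the site-1 protease (ENSG00000140943; chromosome 16, 84087368 to 84150511), was the 1 gene that fell in shSETD2 cells. It stood at 139 and 137 CPM there against 171 and 171 CPM in shCtrl (log2 -0.31, SE 0.0412, adjusted p = 2.26e-06) and 180 and 184 CPM in shMETTL14. MBTPS2, the site-2 protease, was higher in shMETTL14 cells (log2 0.44, adjusted p = 5.74e-04; not called without the second shMETTL14 library) and not called in shSETD2 cells (0.09). SCAP was called in neither line (-0.15 and -0.06). INSIG1 had 0 to 5 counts in every library and was not tested; at 0 h it had 0 and 1 counts in shCtrl, 2 and 4 in shSETD2 and 1 and 2 in shMETTL14, which is at or near the 3-count limit. Whether these low counts come from the cells or from how reads were assigned to the gene was not tested.

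Each of the 4 uptake and transport genes was higher in shSETD2 cells at 0 h. STARD4, a soluble sterol carrier, stood at 60.5 and 57.5 CPM in shCtrl, 112 and 112 CPM in shSETD2 and 42.8 and 47.2 CPM in shMETTL14 (log2 0.92 in shSETD2, SE 0.162, adjusted p = 2.32e-04). NPC1L1, which takes up sterol at the cell surface, rose by 0.50, and the lysosomal cholesterol exporters NPC2 and NPC1 by 0.31 and 0.27. The NPC1, NPC2 and TM7SF2 rises did not pass under every setting: by library size alone their log2 values were 0.12, 0.16 and 0.24 (adjusted p = 0.0626, 0.0765 and 0.0806), and each call was also lost without the first shCtrl library (adjusted p = 0.0507, 0.0920 and 0.0969), that of TM7SF2 also without the second (adjusted p = 0.102) and that of NPC2 with the GC trend removed (log2 0.24, adjusted p = 0.0781). Library size alone moved the median of all genes in this comparison to -0.14. In shMETTL14 cells NPC1L1 was higher (0.28, adjusted p = 0.0267) and the other 3 were not called.

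**Figure D2:**
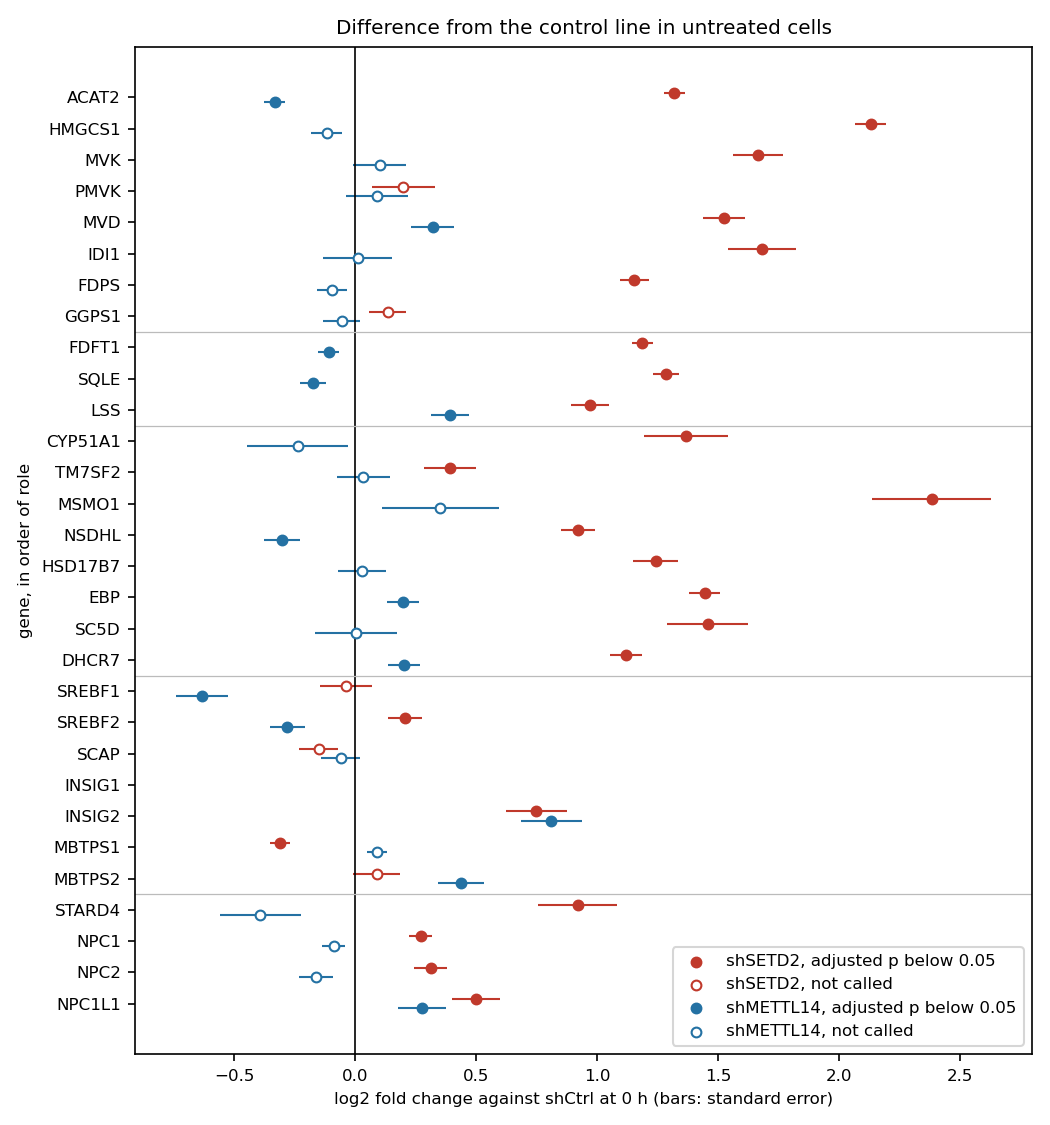
Log2 fold change against shCtrl at 0 h for the 29 tested genes in shSETD2 (red) and shMETTL14 (blue), with standard errors as bars; filled points have an adjusted p below 0.05. Among the synthesis enzymes the red points lie between 0.92 and 2.38 except for PMVK, GGPS1 and TM7SF2, and all the blue points between -0.63 and 0.81 on both sides of 0.

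Which genes were called in shMETTL14 cells depended on the scaling, the tool and single libraries. The split was 7 higher and 6 lower with the main scaling, 4 and 10 with DESeq2's size factors (in edgeR and in DESeq2 itself), 8 and 4 by library size alone, and 8 and 10 with the GC trend removed. Without any 1 of the 4 libraries it was 2 or 3 higher and 8 to 10 lower. The split of all 14887 genes tested moved as well. It was 3433 higher and 3733 lower with the main scaling and 3000 and 4467 with DESeq2's size factors in edgeR. By library size alone it was 3974 and 3072. Among the sterol genes INSIG2 (0.81) and SREBF1 (-0.63) had the largest changes, and the other called ones were within 0.44 of 0. Without any 1 of the 4 libraries the calls of MVD, EBP, DHCR7 and NPC1L1 were lost (adjusted p = 0.0553 to 0.530), and those of EBP, DHCR7 and NPC1L1 also with DESeq2 (adjusted p = 0.107, 0.0987 and 0.0877). FDFT1 and SQLE were not called lower by library size alone (adjusted p = 0.342 and 0.0654) or with limma (adjusted p = 0.309 and 0.0725), nor was FDFT1 with no filter or a stricter filter on low counts (adjusted p = 0.103 and 0.263), and STARD4 was called lower with DESeq2 (adjusted p = 0.0120). The shSETD2 split stayed at 19 to 24 higher and 1 or 2 lower under the same alternatives. All genes tested there had 3221 higher and 2820 lower with the main scaling. They had 2749 and 3511 with DESeq2's size factors in edgeR, and 2010 and 5103 by library size alone.

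Levels per length, as the authors' RPKM, put FDFT1 (52.2 ± 1.54, SD, n = 2), SQLE (48.8 ± 0.644) and HMGCS1 (47.9 ± 0.291) first in shCtrl cells at 0 h. SQLE and HMGCS1 did not differ beyond their spread. ACAT2 (35.0 ± 1.47) and MSMO1 (32.4 ± 1.91) followed within their spread of each other. In shSETD2 cells the order was headed by HMGCS1 (188) and MSMO1 (152), ahead of SQLE and FDFT1 (both 107). At the low end in shCtrl were MVK (3.32), HSD17B7 (2.52) and CYP51A1 (0.938). SREBF2 exceeded SREBF1 in each line (23.6 and 8.82 in shCtrl, 24.5 and 7.70 in shSETD2, 20.2 and 5.91 in shMETTL14).

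Another 4 lists of neighbouring pathways, drawn up with earlier results known, were read in the same fit. Of all genes tested, 21.6% were called higher and 18.9% lower in shSETD2 cells at 0 h, and 23.1% and 25.1% in shMETTL14 cells. Of 15 tested genes of cholesterol efflux, liver X receptor signalling and esterification, 10 were higher and 0 lower in shSETD2 cells (median 0.66; 1 lower at an unadjusted p below 0.05), and 7 higher and 2 lower in shMETTL14 cells (median 0.16). LIPA, the lysosomal acid lipase, rose in both (log2 1.80 and 0.72), as did CYP8B1, a bile acid hydroxylase (3.50 and 1.84), from 0.758 CPM in shCtrl. ABCA1, the cholesterol exporter (0.66 and 0.16), and MYLIP, a ligase that degrades lipoprotein receptors (1.15 and 0.82), were also higher in both. CYP7A1, which starts bile acid synthesis, stood at 3.83 CPM in shSETD2 and 0.142 CPM in shMETTL14 cells, a level near the 3-count limit. Of 13 genes of sterol sensing and degradation in the endoplasmic reticulum, 4 were higher and 4 lower in shSETD2 cells. TMEM97 (1.28) and PGRMC1 (0.70) rose, and RNF145, a ubiquitin ligase, fell (-0.53). In shMETTL14 cells 2 were higher and 7 lower, with ERLIN2 at 0.33 and ERLIN1 at -0.31. Of 14 sterol transfer genes, 5 were higher and 2 lower in shSETD2 and 6 and 2 in shMETTL14. LIMA1 (1.13 and 1.72), GRAMD1B (1.81 and 1.40) and OSBPL2 (0.40 and 0.40) were higher in both. By library size alone the shSETD2 counts of the first 3 lists were 10 and 2, 3 and 6, and 5 and 4. Sterol transfer in shMETTL14 cells then had 7 and 0. On that scaling all 14887 genes tested had 2010 higher and 5103 lower in shSETD2 cells, and 3974 and 3072 in shMETTL14 cells. With DESeq2's size factors the efflux list had 5 and 3 in shMETTL14 cells, against 3000 and 4467 of all genes tested.

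The fourth list held isoprenoid branches, such as protein prenylation, dolichol and ubiquinone synthesis, and a few other sterol steps. Of its 16 tested genes, 2 were higher and 0 lower in shSETD2 cells (ICMT 0.26 and FNTA 0.38), with a median of 0.06. By library size alone 1 was higher and 5 were lower (median -0.09). On that scaling 2010 of all 14887 genes tested were higher and 5103 lower (median -0.14). In shMETTL14 cells 0 were higher and 10 lower (median -0.32), against 25.1% of all genes lower. The counts were the same at an unadjusted p below 0.05. By library size alone 1 was higher and 9 were lower, against 3974 and 3072 of all genes tested. RABGGTB, a subunit of the Rab prenyltransferase, stood at 81.1 CPM against 123 CPM in shCtrl (-0.60) and COQ2, of ubiquinone synthesis, at 10.6 against 15.6 CPM (-0.55). Between the knockdown lines 12 of 16 were higher in shSETD2 cells and none was lower, against 29.2% and 23% of all genes. The counts were 13 and 0 at an unadjusted p below 0.05. By library size alone they were 6 higher and 1 lower, against 2330 and 5787 of all 14887 genes tested. RABGGTB (0.66), LBR (0.45) and NUS1 (0.63) were first by p. In that comparison TMEM97 (1.52), PGRMC1 (0.83) and ERLIN1 (0.60) were also higher in shSETD2, and LIMA1 (-0.59), GRAMD1A (-0.83) and NUMB (-0.29) lower.

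Under actinomycin D every value is a share of the RNA that is left, so a positive slope says that a gene's share of it grew. A slower loss of one RNA and a faster loss of the rest cannot be told apart on this scale. The slope is the least-squares line through the group means over 0 to 6 h, in log2 per h. In shCtrl cells 23 of 29 genes had a positive and 4 a negative called slope, against 37.8% and 33.2% of all genes (71.1% either way). The counts were 18 and 6 in shSETD2 cells (34.2% and 36.2% of all genes, 70.4% either way) and 16 and 5 in shMETTL14 cells (38.2% and 34.8%, 73.1% either way). These splits hold for scaling by composition. By library size alone they were 12 and 7, 13 and 11, and 10 and 12, with the median of all genes at -0.045, -0.050 and -0.061. All 14887 genes tested then had 3360 positive and 6788 negative, 3247 and 6945, and 3050 and 7432. Without the shSETD2 6 h pair the shSETD2 counts of sterol genes were 18 and 7. There IDI1 was no longer called (adjusted p = 0.866) and NPC1 turned from positive to negative (-0.041). MVK, SQLE, HSD17B7 and INSIG2 were called negative in all 3 lines. The MVK call in shSETD2 was lost with DESeq2 (adjusted p = 0.141), with its size factors in edgeR (0.105), over 1 to 6 h (0.174) and without the second shSETD2 6 h library (adjusted p = 0.348). The INSIG2 calls in shSETD2 and shMETTL14 were lost over 1 to 6 h (adjusted p = 0.0537 and 0.0802), and SQLE in shCtrl turned positive over 0 to 3 h. HSD17B7 stood at 34.5% of its 0 h level at 6 h in shCtrl, 33.5% in shSETD2 and 41.0% in shMETTL14 (slopes -0.26, -0.26 and -0.21). INSIG2 had fallen to 40.8%, 43.9% and 47.9% by 3 h. Another 15 genes were called positive in all 3 lines. By library size alone NPC1, among these 15, was called negative in shSETD2 (-0.025, adjusted p = 0.00718) and shMETTL14 (-0.040, adjusted p = 9.75e-05). NPC2, at 193%, 203% and 224% of its 0 h level at 6 h, had the steepest positive slope in each line (0.16, 0.17 and 0.19).

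**Figure D3:**
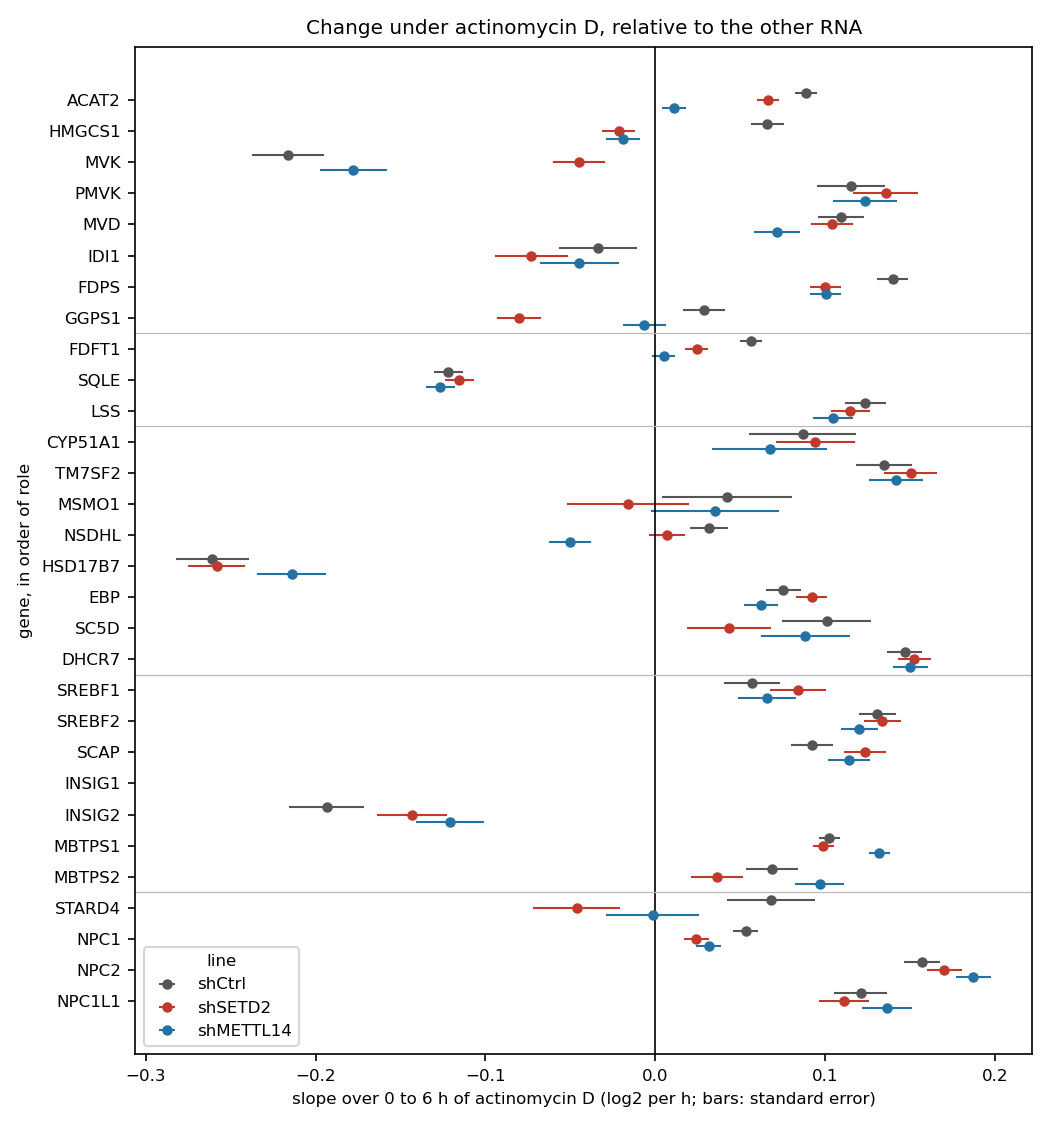
Slope over 0 to 6 h of actinomycin D in log2 per h for the 29 tested genes in each line, with standard errors as bars and grey lines between roles. For many genes the points of the 3 lines lie close together; MVK and GGPS1 in shSETD2, and ACAT2 and NSDHL in shMETTL14, stand apart.

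Few genes had a slope that differed between lines. Between shSETD2 and shCtrl 1 gene had a higher and 3 a lower slope, against 1.49% and 6.45% of all genes (7.94% either way). Between shMETTL14 and shCtrl 4 had a lower slope and 0 a higher one (2 higher at an unadjusted p below 0.05), against 3.35% and 1.85% of all genes (5.21% either way). Between the knockdown lines 3 were higher and 2 lower, against 3.2% and 6.4% of all genes (9.61% either way). The splits of all genes moved with the scaling. With the main scaling 222 were called higher and 960 lower, 276 and 499, and 477 and 953, in the same order of comparisons. With DESeq2's size factors they were 463 and 294, 360 and 380, and 754 and 427. By library size alone they were 273 and 487, 175 and 1047, and 1121 and 315. Both knockdown comparisons share the shCtrl libraries. Without the shSETD2 6 h pair, over 0 to 3 h in both lines, the counts of sterol genes were 0 higher and 9 lower against shCtrl, and 0 and 1 against shMETTL14. With that pair kept, slope differences over 0 to 3 h were called in 1.49% and 2.24% of all genes either way. The share of all genes is not given here for the fit without the pair or for the alternatives in the next sentence. The shMETTL14 split became 2 higher and 2 lower without the first library of shCtrl or shMETTL14 at 0 h, 1 and 3 without the second of either, and 3 and 8 with the GC trend removed.

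HMGCS1 had a lower slope than shCtrl in both knockdown lines. In shCtrl its share rose from 198 and 195 CPM at 0 h to 269 and 256 CPM at 1 h and 375 and 388 CPM at 3 h, and was back at 256 and 277 CPM at 6 h. In shSETD2 it read 856 and 865, 856 and 922, 961 and 997, and 711 and 856 CPM at the same times. In shMETTL14 it read 184 and 178, 181 and 190, 203 and 207, and 162 and 170 CPM. At 3 h it was thus at 194% of its 0 h level in shCtrl and at 114% and 113% in the knockdown lines. The slope difference over 0 to 6 h was -0.088 log2 per h in shSETD2 (SE 0.0138, adjusted p = 3.94e-04) and -0.085 in shMETTL14 (SE 0.0141, adjusted p = 4.89e-04). Without the shSETD2 6 h pair the shSETD2 difference, then over 0 to 3 h in both lines, was -0.25 (adjusted p = 5.48e-10). Over 1 to 6 h neither passed (-0.032 and -0.028, adjusted p = 0.397 and 0.559).

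**Figure D4:**
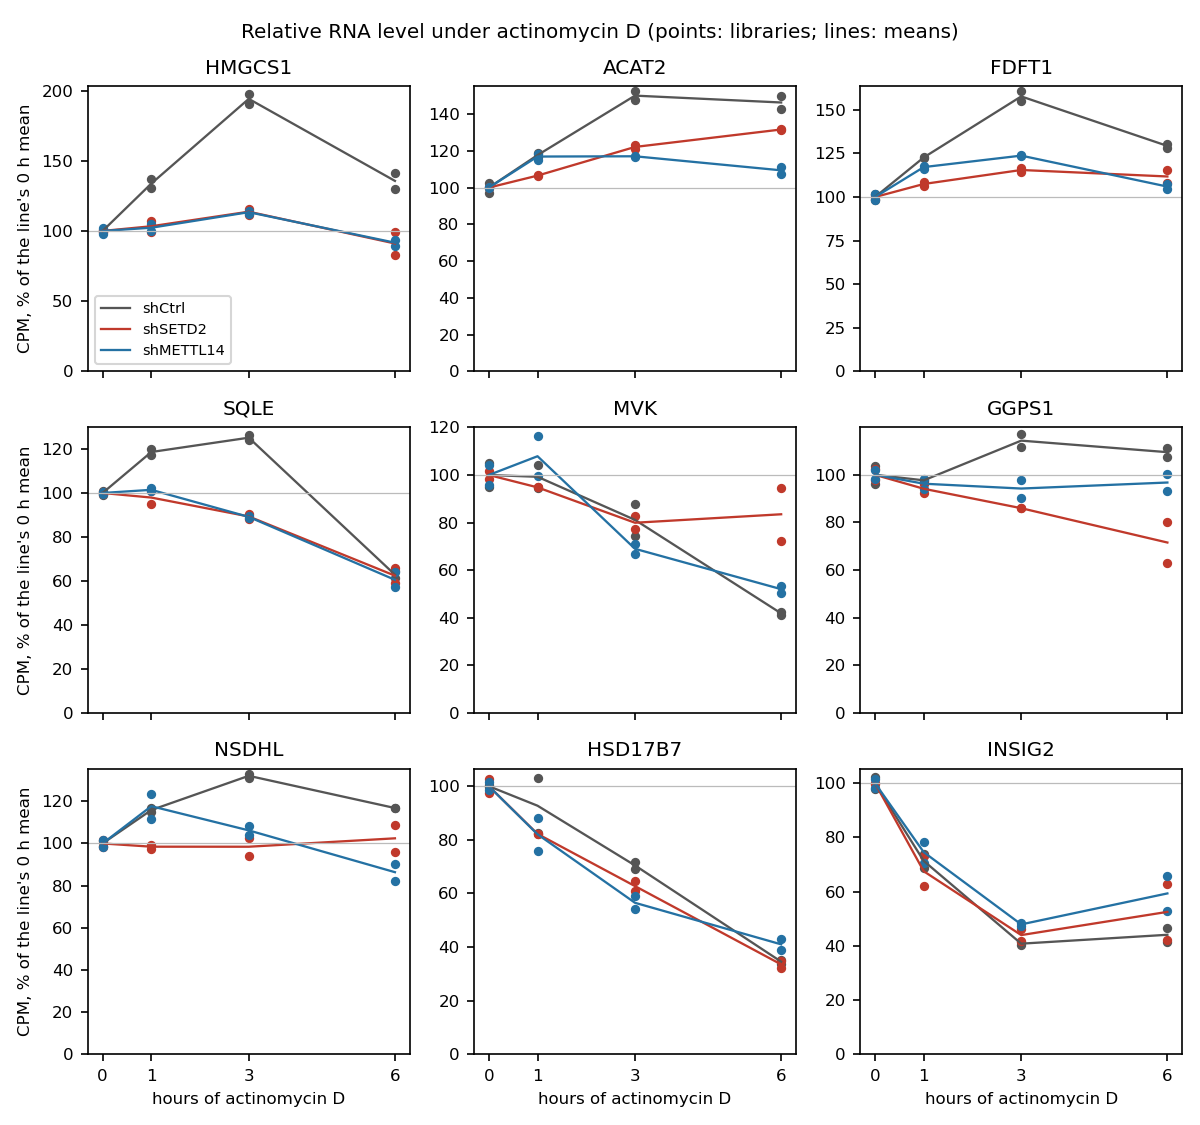
Share of the RNA for 9 genes over 0, 1, 3 and 6 h of actinomycin D, as a percentage of each line's own 0 h mean CPM; points are libraries and lines join the means of 2. HMGCS1 reaches 194% in shCtrl at 3 h and stays under 115% in the means of both knockdown lines, SQLE differs between the lines only up to 3 h, and MVK in shSETD2 parts from the other lines at 6 h.

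The difference lay in the first 3 h for several enzymes. With the slope taken over 0 to 3 h, 7 genes had a lower slope in shSETD2 than in shCtrl and 0 a higher one (12 and 0 at an unadjusted p below 0.05), against 1.49% of all genes called either way. They were HMGCS1 (-0.25), SQLE (-0.15), FDFT1 (-0.15), GGPS1 (-0.14), NSDHL (-0.13), NPC1 (-0.097) and ACAT2 (-0.096). In shMETTL14 4 had a lower slope, against 1.39%, namely HMGCS1 (-0.25), SQLE (-0.16), ACAT2 (-0.13) and FDFT1 (-0.12). Over the same 3 h none of the 29 was called between the knockdown lines (1 at an unadjusted p below 0.05), where 2.24% of all genes were. SQLE showed this most plainly. Its share rose in shCtrl from 185 and 181 CPM to 227 and 232 CPM at 3 h and then dropped to 112 and 118 CPM, while in shSETD2 it fell from 446 and 449 to 395 and 404 CPM by 3 h and in shMETTL14 from 162 and 163 to 146 and 144 CPM. At 6 h the 3 lines were together again, at 62.8%, 62.4% and 60.5% of their 0 h level. Over 0 to 3 h the slope of SQLE was 0.098 log2 per h in shCtrl (SE 0.0174), -0.056 in shSETD2 and -0.061 in shMETTL14. Its slope difference over 0 to 6 h was 0.0065 in shSETD2 (adjusted p = 0.797).

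FDFT1 and ACAT2 followed HMGCS1 in part. FDFT1 stood at 158% of its 0 h level at 3 h in shCtrl, 116% in shSETD2 and 124% in shMETTL14. Its slope difference over 0 to 6 h was -0.051 in shMETTL14 (SE 0.00943, adjusted p = 0.00148) and -0.032 in shSETD2 (SE 0.00932, adjusted p = 0.0364). The shMETTL14 call was lost without any 1 of the 4 libraries of 0 h (adjusted p = 0.0713 to 0.160) and over 1 to 6 h (adjusted p = 0.0909). The shSETD2 call was lost with DESeq2, with other scalings and with other filters on low counts (adjusted p = 0.0741 to 0.470). It was also lost without either shCtrl library of 0, 1 or 6 h, either shSETD2 library of 0 or 3 h or the first of 1 h (adjusted p = 0.0502 to 0.885), and over 1 to 6 h, or without the first shCtrl library of 0 h, the sign turned. Without the shSETD2 6 h pair the shSETD2 difference, then over 0 to 3 h in both lines, was -0.15 (adjusted p = 6.50e-07). ACAT2 stood at 146% of its 0 h level at 6 h in shCtrl, 132% in shSETD2 and 109% in shMETTL14. Its slope was lower in shMETTL14 than in shCtrl (-0.078, SE 0.00961, adjusted p = 1.70e-05) and lower than in shSETD2 (0.055 between the knockdown lines, adjusted p = 5.90e-04; adjusted p = 0.343 without the shSETD2 6 h pair). NSDHL also had a lower slope in shMETTL14 than in shCtrl (-0.082, SE 0.0168, adjusted p = 0.00385), a call lost without the first library of either group at 0 h (adjusted p = 0.0622 and 0.0662). It stood at 117% of its 0 h level at 6 h in shCtrl, 102% in shSETD2 and 86.4% in shMETTL14.

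MVK and GGPS1 had the largest called slope differences between shSETD2 and shCtrl cells. MVK read 17.1 and 15.5, 15.4 and 16.9, 14.3 and 12.1, and 6.69 and 6.92 CPM over the 4 times in shCtrl. In shSETD2 it read 52.5 and 50.6, 48.9 and 48.9, 42.7 and 39.8, and 48.8 and 37.3 CPM. The lines ran together to 3 h (81.1% and 79.9% of their 0 h level) and parted at 6 h (41.8% and 83.5%). The slope difference was 0.17 (SE 0.0265, adjusted p = 3.38e-04), and 0.14 or 0.20 without 1 of the shSETD2 6 h libraries. Without both of them, with the slopes over 0 to 3 h in both lines, it was -0.0046 (adjusted p = 0.970). The MVK difference thus rests on the 6 h time point of both lines. GGPS1 stood at 110% of its 0 h level at 6 h in shCtrl, 71.5% in shSETD2 (27.0 and 34.3 CPM) and 96.8% in shMETTL14. Its slope in shSETD2 differed from shCtrl by -0.11 (SE 0.0179, adjusted p = 5.33e-04), and by -0.14 over 0 to 3 h without the 6 h pair (adjusted p = 0.00191). It was also lower than in shMETTL14 (-0.074, adjusted p = 0.0109), but not by library size alone (adjusted p = 0.0663), without the first shSETD2 6 h library (adjusted p = 0.0870) or without the second shMETTL14 library of 0 or 6 h (adjusted p = 0.0686 and 0.0798). MVK (0.13, adjusted p = 0.00157), NSDHL (0.058, adjusted p = 0.0271) and MBTPS1 (-0.033, adjusted p = 0.0222) also differed between the knockdown lines; each call was lost when the slope was taken over 0 to 3 h (adjusted p = 0.411, 0.832 and 0.125). The MVK, NSDHL and GGPS1 calls between the knockdown lines were lost without the shSETD2 6 h pair (adjusted p = 0.182, 0.777 and 0.415), where NSDHL turned to -0.019 and MBTPS1 was -0.058 (adjusted p = 0.0334). The NSDHL call was also lost without the first shSETD2 library of 0 or 6 h or the first shMETTL14 library of 1 or 6 h (adjusted p = 0.0561 to 0.131). The MBTPS1 call was lost with DESeq2, with both other scalings (adjusted p = 0.144 to 0.523), and without either shMETTL14 library of 0 h, the second of 6 h or the first shSETD2 library of 0 h (adjusted p = 0.0739 to 0.224).

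The authors' deposited table of RNA half-lives lists 10 of the 30 genes among 7772. Of these, 9 of 10 were listed as shorter in shSETD2 than in shCtrl and 9 of 10 in shMETTL14, close to the 88.2% and 88.8% of all listed genes. The median of the 10 was 17.4 h in shCtrl, 5.30 h in shSETD2 and 6.39 h in shMETTL14, where all listed genes had 6.02, 4.13 and 4.31 h. HMGCS1 was listed at 567 h in shCtrl, 6.39 h in shSETD2 and 6.78 h in shMETTL14 in the authors' deposited table. In the counts scaled for composition its shCtrl share stood at 136% of the 0 h level after 6 h. By library size alone its shCtrl slope was 0.0071 log2 per h (adjusted p = 0.528). Its RPKM in shCtrl, scaled by library total, stood at 47.9 at 0 h and 51.0 at 6 h. FDFT1 (65.7, 9.59 and 7.99 h), MSMO1 (57.1, 6.25 and 11.7 h) and GGPS1 (24.6, 4.65 and 7.52 h) were also listed with far longer shCtrl values in the authors' deposited table. MVK was the 1 gene listed as longer in shSETD2 (5.87 h against 3.50 h) and INSIG2 the 1 listed as longer in shMETTL14 (4.10 h against 3.85 h) in the authors' deposited table. The authors' deposited table lists short values for HSD17B7 (3.03, 2.58 and 2.95 h) and SQLE (5.24, 4.03 and 3.96 h), whose slopes in the counts were negative in all 3 lines. The deposited table gives no error or number of libraries for these values.

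**Figure D5:**
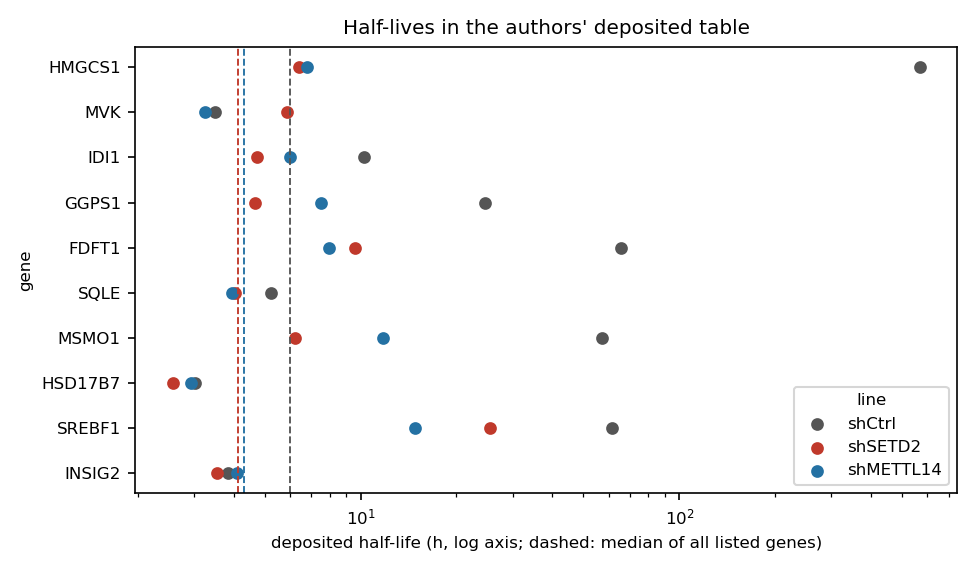
RNA half-life in hours (log axis) of the 10 genes in the authors' deposited table, 1 point per line, with the median of all 7772 listed genes as dashed lines. The 6 genes HMGCS1, MSMO1, FDFT1, SREBF1, GGPS1 and IDI1 have shCtrl values above 10 h, while every knockdown value except 3 (MSMO1 and SREBF1 in shMETTL14, SREBF1 in shSETD2) is below 10 h.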

How the data were processed

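RNA from 24 libraries of HepG2 cells was sequenced, 2 for each of 12 groups of line and time. The submitters' processing notes name cutadapt, TopHat, HTSeq 0.6.1p1 and the build GRCh37; no source used here says whether counting used strand. The authors deposited whole-number counts per gene, which were used for every test. The RPKM values the authors deposited beside them equal counts per exon length and library total, and were used for levels between genes. Half-lives in hours were taken as the authors deposited them. Per the labels' protocols ERCC RNA was added, but spike-in entries were not analysed here, so each value is a share of its library's RNA.

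The test was edgeR 4.0.16 under R 4.3.3 (TMM scaling, filterByExpr over the 12 groups, quasi-likelihood F test with the robust option, two-sided, Benjamini-Hochberg adjustment at 0.05), with 1 mean per group over all 24 libraries and 12 residual degrees of freedom. The biological coefficient of variation was 5.04%. Library totals were 18.3 to 31.4 M counts, and 3 counts are taken as the limit of detection, for counting error only. The scripts were tested on simulated data. Alternatives were DESeq2 1.42.0, limma 3.58.1 on log2(RPKM + 0.1), other scalings, filters and time spans, a replicate block, each library left out and, chosen after seeing the data, a lowess trend of each library on transcript GC removed and the shSETD2 6 h pair left out. No library pair was identical. Genes named are the 30, SETD2, METTL14 and up to 3 genes per other list and 0 h comparison, by smallest p past the threshold; marker lists of hepatocytes, fibroblasts, blood and immune cells, and endothelial and stellate cells were also read. PECAM1 was not analysed here. A gene that this rule would name is not reported here. The members, lists and tests were chosen with earlier results of these data known. No correction was made for the overlapping genes named in the text.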

Additional observations from a re-analysis of the deposited data

Results flagged for a closer look

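Slopes under actinomycin D that differed between 2 lines by the test of the difference itself (edgeR's quasi-likelihood test, adjusted over all genes) are gathered here, in log2 per h. In shSETD2 against shCtrl they were HMGCS1 (-0.088), MVK (0.17), GGPS1 (-0.11) and FDFT1 (-0.032). In shMETTL14 against shCtrl they were ACAT2 (-0.078), HMGCS1 (-0.085), FDFT1 (-0.051) and NSDHL (-0.082). In shSETD2 against shMETTL14 they were ACAT2 (0.055), MVK (0.13), GGPS1 (-0.074), NSDHL (0.058) and MBTPS1 (-0.033). The MVK values rest on the 6 h time point, where the 2 shSETD2 libraries differed most from each other. No group had the 4 libraries needed to look for single values that stand apart.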

How the results depend on the processing

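The total of genes called in either direction, at 0 h and for the slopes within a line, kept within 1.5 times of its reported value under every alternative run, but the splits into higher and lower moved further, as given above; SREBF2, NPC1, NPC2 and TM7SF2 lost their 0 h call in shSETD2 under some, as given above. The GC correction and the fit without both shSETD2 6 h libraries were chosen after seeing the data. In that fit the slope differences were taken over 0 to 3 h in both lines. Values follow for called genes only; the sign of genes that were never called was not followed. Causes were not tested.

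Genes called for a slope difference numbered, for shSETD2 minus shCtrl, 11 with the GC trend removed, 7 with no filter on low counts, 7 over 0 to 3 h, 9 without both shSETD2 6 h libraries and 3 to 9 with 1 library left out. For shMETTL14 minus shCtrl they numbered 11 with the GC trend removed and 2 over 1 to 6 h. For shSETD2 minus shMETTL14 they numbered 0 over 0 to 3 h, 1 without both shSETD2 6 h libraries and 3 to 14 with 1 library left out (14 without the second shSETD2 6 h library). Beside the 0 over 0 to 3 h, 1 of 29 had an unadjusted p below 0.05. The total called among all 14887 genes tested also moved with the setting. For shSETD2 minus shCtrl it was 1182 in the main fit, 757 with DESeq2's size factors and 222 over 0 to 3 h. Over 0 to 3 h it was 207 for shMETTL14 minus shCtrl and 333 for shSETD2 minus shMETTL14. Totals of all genes for the other settings of this paragraph are not given here, so these counts alone are no result about the sterol genes.

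Signs turned as follows (log2 per h). By library size alone and with limma on RPKM, slopes in shCtrl were -0.0026 and -0.0025 for FDFT1, -0.030 and -0.030 for GGPS1, -0.0058 and -0.0057 for NPC1, -0.027 and -0.027 for NSDHL, and -0.0019 and -0.0020 for SREBF1. In shSETD2 they were -0.025 and -0.025 for FDFT1, -0.013 and -0.013 for MBTPS2, and -0.025 and -0.025 for NPC1. In shMETTL14 they were -0.0087 and -0.0094 for EBP, -0.040 and -0.040 for NPC1, -0.0056 and -0.0060 for SREBF1, and for MVD -0.00059 with limma. By library size alone some of these turned slopes were themselves called negative. They were GGPS1 and NSDHL in shCtrl (adjusted p = 0.0320 and 0.0415) and FDFT1 in shSETD2 (adjusted p = 0.00278). NPC1 in shSETD2 and shMETTL14 was also called negative (adjusted p = 0.00718 and 9.75e-05). GGPS1 at 0 h between the knockdown lines was -0.020 by library size alone and -0.021 with limma (log2). Over 1 to 6 h, the shCtrl slope was -0.0099 for HMGCS1 and -0.0024 for NSDHL, and the FDFT1 difference for shSETD2 was 0.0028 (0.0033 without the first shCtrl 0 h library). Over 0 to 3 h, slopes were 0.098 for SQLE in shCtrl, -0.042 and -0.020 for NPC1 in shSETD2 and shMETTL14 and 0.014 for NSDHL in shMETTL14; differences were -0.0040 for MVK (shSETD2 minus shCtrl) and -0.020 for NSDHL (shSETD2 minus shMETTL14). Without both shSETD2 6 h libraries these were -0.041 for the NPC1 slope in shSETD2, -0.0046 for MVK and -0.019 for NSDHL.

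Of 66 pairs of same-numbered libraries 36 had deviations from their group means that correlated above 0.1 (median 0.211, -0.239 to 0.720); since not every pair did and no label ties the numbers, they were not taken to pair the samples. With the replicate block, 24, 15 and 26 genes were called at 0 h, 28, 26 and 23 for the slopes and 6, 6 and 6 for the slope differences (4, 4 and 5 without it). The share of all genes called with the block is not given here. INSIG1 had too few counts to be tested.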
